A study of Rattus norvegicus with 30 samples.

Results

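The levels of 6 genes by which microglia and macrophages are commonly recognised, Aif1, Cd68, Itgam, Csf1r, Tyrobp and Ptprc, were followed 3 months after a traumatic brain injury (TBI) in rats. They were chosen by name as identity genes of these cells, with earlier results of these data known. They are 6 of the 26404 genes in the count tables. The tables list them as ENSRNOG00000000853 (Aif1), ENSRNOG00000037563 (Cd68), ENSRNOG00000019728 (Itgam), ENSRNOG00000018414 (Csf1r), ENSRNOG00000020845 (Tyrobp) and ENSRNOG00000000655 (Ptprc). The tables hold identifiers only, so the pairing of these identifiers with the names came with the choice of the genes and was not checked against an annotation here.

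All animals were adult male Sprague-Dawley rats, and the study mentions no transgene. Rats 6 to 10 had TBI induced by lateral fluid-percussion injury (FPI), in which a pulse of fluid strikes the exposed dura of an anesthetized animal, and rats 1 to 5 were sham-operated. mRNA of the perilesional cortex, the thalamus and the hippocampus of each rat was sequenced, which gave 30 libraries, 5 per group in each brain area. The hippocampal piece was dissected as the dentate gyrus with the adjoining part of CA3. Each library was made from a whole piece of tissue, so a change in the number of cells of a type, in either direction, and a change in the RNA per cell cannot be told apart.

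Microglia are the resident phagocytes of the brain, and macrophages from the blood or the borders of the brain share most of their identity genes. Csf1r encodes the receptor for the growth factors CSF1 and IL-34, on which microglia depend for survival. Tyrobp encodes the signalling adaptor of TREM2 and related surface receptors. Itgam (CD11b) is the alpha chain of complement receptor 3, Ptprc (CD45) is a phosphatase of all nucleated blood cells, Aif1 (IBA1) binds calcium and actin, and Cd68 is a glycoprotein of the late endosome and lysosome of phagocytes. PU.1, a transcription factor of the ETS family that recognises a GAGGAA core, is required for the microglial and macrophage lineage.

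Because 5 of the 6 genes were higher after TBI in the cortex and all 6 in the thalamus, the promoters of those with an entry are shown. They cover 250 bases before to 50 bases after the annotated start in the GRCr8 assembly of RefSeq, 5′ to 3′ on the strand of the gene. Entries were found for 4 of the 6 genes by symbol, and Aif1 and Tyrobp had none. The windows lie at chr10:54882392-54882691 on the minus strand (Cd68), chr1:192089342-192089641 on the plus strand (Itgam), chr18:56834129-56834428 on the plus strand (Csf1r) and chr13:52259697-52259996 on the minus strand (Ptprc). GRCr8 is not the build of the counts, which were made on Rnor_5.0. Capitals mark GAGGAA, or TTCCTC where it lies on the other strand.
Cd68: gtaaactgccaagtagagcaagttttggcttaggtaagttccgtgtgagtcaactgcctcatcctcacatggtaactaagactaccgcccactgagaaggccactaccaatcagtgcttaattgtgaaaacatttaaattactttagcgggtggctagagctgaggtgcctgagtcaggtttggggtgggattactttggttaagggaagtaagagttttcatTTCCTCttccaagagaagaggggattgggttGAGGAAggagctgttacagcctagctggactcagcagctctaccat
Itgam: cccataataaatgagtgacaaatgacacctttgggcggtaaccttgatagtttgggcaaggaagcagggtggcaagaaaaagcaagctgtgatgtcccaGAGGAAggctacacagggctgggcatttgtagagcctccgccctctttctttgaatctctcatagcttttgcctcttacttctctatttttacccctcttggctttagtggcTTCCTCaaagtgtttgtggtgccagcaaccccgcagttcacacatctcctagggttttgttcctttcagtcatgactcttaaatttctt
Csf1r: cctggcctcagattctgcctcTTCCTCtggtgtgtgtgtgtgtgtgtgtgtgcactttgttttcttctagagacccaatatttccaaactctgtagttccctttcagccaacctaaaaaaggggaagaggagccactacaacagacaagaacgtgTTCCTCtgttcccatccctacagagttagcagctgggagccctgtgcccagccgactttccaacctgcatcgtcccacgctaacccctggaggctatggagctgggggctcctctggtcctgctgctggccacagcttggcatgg
Ptprc: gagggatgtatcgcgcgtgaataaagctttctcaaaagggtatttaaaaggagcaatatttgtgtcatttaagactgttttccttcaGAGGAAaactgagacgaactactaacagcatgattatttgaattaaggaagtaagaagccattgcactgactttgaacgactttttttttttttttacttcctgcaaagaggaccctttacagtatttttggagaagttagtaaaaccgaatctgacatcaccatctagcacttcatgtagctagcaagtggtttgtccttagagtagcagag

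The letters GAGGAA, searched on both strands, were found in all 4 of these windows and in 27.6% of the 33469 promoters of the same table. TGTGGT, the core of RUNX sites, was searched on both strands and found once in the window of Itgam, on the strand of the gene, and in 17.3% of all promoters. TGAGTCA, the AP-1 site, was found at 2 places in the window of Cd68 and in 4.63% of all promoters. None of these motifs overlapped another. In GRCr8 no annotated gene overlapped any of the 6 genes. The neighbours include Itgax, a paralog beside Itgam, and Hcst, another adaptor gene beside Tyrobp. No row of the tables had counts identical to one of the 6 genes.

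The libraries held between 21992859 and 31799879 counts. The smallest counts behind a value were those of Ptprc in the thalamus of sham-operated rats (12 to 38 counts). In the hippocampus of sham-operated rats, Cd68 went down to 14 counts and Ptprc to 18 counts, both in rat 5. The largest counts were those of Csf1r (1081 to 8912 counts over all libraries). In the hippocampus, the 10 most counted genes took 44.1% and 40.9% of the counts of sham-operated rats 4 and 5, and between 9.95% and 16.4% in the other 8 libraries. In the cortex their share was 20.3% to 29.6% in sham-operated rats and 14.1% to 23.8% in rats with TBI, and its part in the results was not tested. The hippocampal libraries of rats 3 and 8 also stood apart. Over 41 genes that differed between rats alike in cortex and thalamus and did not follow the injury, the hippocampal library labelled rat 3 correlated best with rat 8 (r = 0.58 across genes, against -0.24 with rat 3), and the library labelled rat 8 correlated best with rat 3 (r = 0.74, against 0.25 with rat 8). Of the other 8 hippocampal libraries, 6 correlated best with their own rat, and rats 1 and 6 did not (r = 0.60 with rat 7 against 0.57 with rat 1, and r = 0.41 with rat 3 against 0.24 with rat 6). These r values are a description across genes with no test, and the thresholds behind the 41 genes were chosen after the data were seen. The study left some sham-operated hippocampal libraries out of its own tests because they aligned poorly, without naming them, and all are included here. Because of rats 3 and 8, the hippocampal results for the 6 genes are given under the labels and also without these libraries.

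In the sham-operated rats, the question was whether the 3 brain areas differ in these genes without injury. In the fit without the rat as a block, Ptprc was the one gene to differ by area, with a lower level in the thalamus. With the rat as a block, Csf1r, Tyrobp and Itgam also passed the threshold, as given with their values. When the 15 sham libraries were scaled together, Ptprc had a CPM value (counts scaled to the library size) of 2.33 ± 0.49 (SD, n = 5) in the cortex, 1.79 ± 0.49 CPM in the hippocampus and 0.77 ± 0.30 CPM in the thalamus. The thalamic level was below the cortical one by a log2 difference of -1.60 (standard error (SE) 0.26, adjusted p = 2.08e-05, edgeR), and the hippocampus was above the thalamus by 1.23 (SE 0.26, adjusted p = 0.000409). The cortex and hippocampus did not differ beyond their spread, with a log2 difference of -0.36 for the hippocampus (95% interval -0.87 to 0.15). As the study's methods give another sequencer and longer reads for the thalamus, the brain area and the sequencing run cannot be told apart here.

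The other 5 genes showed no difference between areas past the threshold in sham-operated rats without the block. Csf1r, for the growth factor receptor, had 79.6 ± 11.4 CPM in the cortex, 97.0 ± 16.0 CPM in the thalamus and 91.4 ± 16.7 CPM in the hippocampus. Tyrobp had 12.6 ± 1.9, 16.5 ± 2.9 and 13.4 ± 4.5 CPM in the same order. For these genes the thalamus was above the cortex by 0.29 (95% interval 0.00 to 0.57, adjusted p = 0.0663) and by 0.38 (95% interval 0.01 to 0.76, adjusted p = 0.0650) on the log2 scale. Itgam was highest in the hippocampus, at 16.7 ± 3.3 CPM against 13.1 ± 3.1 CPM in the cortex and 14.0 ± 2.0 CPM in the thalamus, and the log2 difference between hippocampus and cortex was 0.36 (95% interval 0.03 to 0.69, adjusted p = 0.0738). With the rat as a block these differences passed the threshold, at adjusted p = 0.0466 for Csf1r, 0.0477 for Tyrobp and 0.0480 for Itgam. Without the library of rat 3, the hippocampal levels were 1.58 ± 0.53 CPM for Cd68, 11.7 ± 2.5 CPM for Tyrobp, 85.5 ± 11.7 CPM for Csf1r, 1.59 ± 0.27 CPM for Ptprc, 9.02 ± 0.85 CPM for Aif1 and 16.9 ± 3.8 CPM for Itgam (SD, n = 4). In the fit without rat 3 in any area, hippocampus minus cortex went from 0.44 to -0.31 for Cd68 on the log2 scale, neither past the threshold. Tyrobp passed it in that fit, lower in the hippocampus than in the thalamus by -0.51 (adjusted p = 0.0165, edgeR) and higher in the thalamus than in the cortex by 0.40 (adjusted p = 0.0499). With all 5 rats, Aif1 lay within 9.58 and 10.5 CPM on average in all areas and Cd68 within 1.90 and 2.48 CPM. Between pairs of areas, 1, 0 and 1 of the 6 genes thus passed the test (thalamus and cortex, hippocampus and cortex, hippocampus and thalamus), against 70.8%, 44.4% and 67.6% of the 17315 genes tested.

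**Figure D1:**
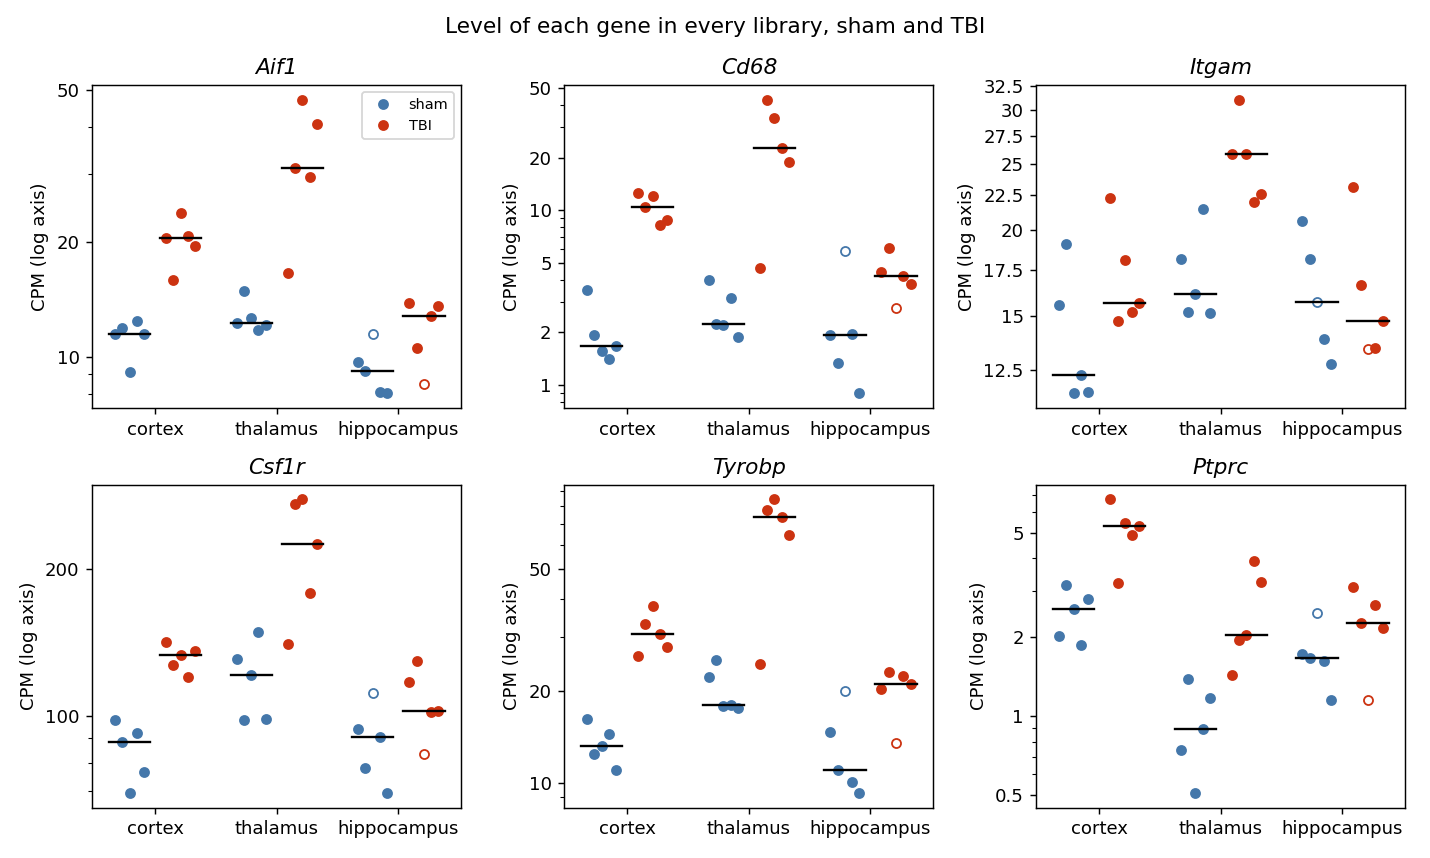
Level of each of the 6 genes in every library, in CPM on a log axis, for sham-operated rats (blue) and rats with TBI (red) in each brain area, with 1 point per rat in the order of rat numbers and a bar at the median of 5 rats. Open points are the hippocampal libraries of rats 3 and 8. Each area was scaled on its own. In the cortex the groups do not overlap for any gene except Itgam, and in the thalamus TBI rat 6 lies near the sham-operated rats for Cd68, Csf1r and Tyrobp.

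In the perilesional cortex, 5 of the 6 genes were upregulated at 3 months after TBI. The largest rise was that of the lysosomal gene Cd68, followed by Tyrobp, Ptprc, Aif1 and Csf1r, and Itgam did not pass the test. Of all 17185 genes tested, 14.2% were called higher after TBI by the same test. In addition, every injured rat exceeded every control for these 5 genes, which was so for 10.2% of the genes tested.

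Cd68 had 3.52, 1.92, 1.58, 1.42 and 1.68 CPM in the cortex of sham-operated rats 1 to 5, and 12.6, 10.5, 12.1, 8.20 and 8.77 CPM in rats 6 to 10 with TBI. Every rat with TBI was thus well above the highest sham-operated animal, rat 1. The level was 5.25-fold higher after TBI (log2 fold change 2.39, SE 0.22, adjusted p = 6.54e-06), the 59th largest log2 fold change among the genes tested in this area. For Tyrobp, the adaptor of TREM2, the sham values were 16.2, 12.5, 13.2, 14.5 and 11.1 CPM, and the TBI values were 25.9, 33.1, 37.8, 30.6 and 27.8 CPM. The groups were again apart, and the fold change was 2.30 (log2 fold change 1.20, SE 0.12, adjusted p = 9.39e-06).

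Ptprc, the CD45 gene, was measured at 2.03, 3.17, 2.57, 1.87 and 2.80 CPM in sham-operated rats and at 6.72, 3.21, 5.48, 4.92 and 5.32 CPM in rats with TBI. Rat 7 with TBI lay just above sham-operated rat 2, and the other rats with TBI lay well above all controls. The log2 fold change was 1.04 (SE 0.19, adjusted p = 0.00141). Aif1, the IBA1 gene, ranged from 9.12 to 12.4 CPM in sham-operated rats and from 15.8 to 23.8 CPM after TBI (log2 fold change 0.83, SE 0.11, adjusted p = 0.000159). Csf1r ranged from 69.4 to 97.9 CPM and from 120 to 142 CPM, and its rise of 1.55-fold was the smallest of those past the test (log2 fold change 0.63, SE 0.09, adjusted p = 0.000272). Its 5 TBI values had an SD of 8.46 CPM around a mean of 131 CPM.

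Itgam, the CD11b gene, had 15.6, 19.1, 11.6, 12.3 and 11.6 CPM in the cortex of sham-operated rats and 22.3, 14.7, 18.1, 15.2 and 15.6 CPM in rats with TBI. The groups overlapped, and sham-operated rat 2 was above 4 of the 5 rats with TBI. The log2 fold change was 0.30 (95% interval -0.03 to 0.63), with an adjusted p = 0.175. With single rats left out it ranged from 0.18 without rat 6 (adjusted p = 0.392) to 0.43 without rat 2 (adjusted p = 0.0403), and over the other alternatives in the cortex it did not pass the threshold. The 5 genes called kept an adjusted p under the threshold of 0.05 in every alternative, at most 0.00616 (Ptprc).

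In the thalamus, all 6 genes were higher after TBI, against 3.77% of the 16605 genes tested there. The estimates had the same order as in the cortex, with Cd68 and Tyrobp first and Itgam last. The groups did not overlap for Aif1, Cd68, Itgam and Ptprc (4 of 6 genes, against 2.75% of the genes tested). For Csf1r and Tyrobp, 4 of the 5 injured rats exceeded every control, and rat 6 was the exception.

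Cd68 had 3.98, 2.23, 2.21, 3.14 and 1.88 CPM in the thalamus of sham-operated rats, and 4.66, 43.0, 33.7, 22.7 and 18.8 CPM in rats 6 to 10 with TBI. Rat 6 was close to the highest sham value, and the other 4 rats were 18.8 CPM or higher. The fold change was 9.09 (log2 fold change 3.18, SE 0.47, adjusted p = 0.0166, edgeR), the 5th largest log2 fold change of the genes tested in the thalamus. Tyrobp was measured at 22.2, 25.2, 17.9, 18.0 and 17.6 CPM in sham-operated rats and at 24.4, 78.1, 84.2, 73.8 and 64.5 CPM after TBI. Rat 6 was below sham-operated rat 2 here, and the other 4 injured rats were above every control. The log2 fold change of Tyrobp was 1.68 (SE 0.26, adjusted p = 0.0166), 68th in the order of all genes tested.

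Aif1 showed the same spread among the injured rats, with 11.7 to 14.8 CPM in sham-operated animals and 16.6, 31.2, 47.1, 29.5 and 40.7 CPM in rats 6 to 10 (log2 fold change 1.38, SE 0.22, adjusted p = 0.0166). Csf1r had 97.9 to 148 CPM in sham-operated rats and 141, 272, 278, 179 and 225 CPM after TBI (log2 fold change 0.88, SE 0.19, adjusted p = 0.0250). Ptprc rose from between 0.51 and 1.39 CPM to 1.44, 1.96, 2.04, 3.91 and 3.25 CPM (log2 fold change 1.40, SE 0.33, adjusted p = 0.0308). For CD45 the highest animals were therefore rats 9 and 10, not rats 7 and 8 as for Cd68. Itgam rose by 1.48-fold, from between 15.1 and 21.5 CPM to between 22.0 and 31.1 CPM (log2 fold change 0.56, SE 0.14, adjusted p = 0.0337), and rat 6 was not its lowest animal.

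The thalamic calls depended on single rats. Without rat 3, 5, 7 or 8, none of the 6 genes passed the threshold, with adjusted p between 0.0530 and 0.104, and 0 genes of the whole table did in edgeR, while 2971 to 3281 genes had an unadjusted p under 0.05. Without rat 10, Aif1, Cd68 and Tyrobp passed it (adjusted p = 0.0498), and 66 of the 16742 genes tested were called higher. Ptprc also missed it without rat 1, 4 or 9, and Itgam without rat 1 or 2. Without rat 6 all 6 passed it, with adjusted p from 1.76e-05 (Tyrobp) to 0.0242 (Itgam), and 1333 of the 16684 genes tested were called higher. The direction was the same throughout. Over the 10 fits that each lacked a rat, the log2 fold change lay between 2.88 and 3.46 for Cd68, 1.57 and 1.90 for Tyrobp, 1.21 and 1.55 for Aif1, 1.19 and 1.59 for Ptprc, 0.77 and 1.01 for Csf1r, and 0.48 and 0.66 for Itgam.

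**Figure D2:**
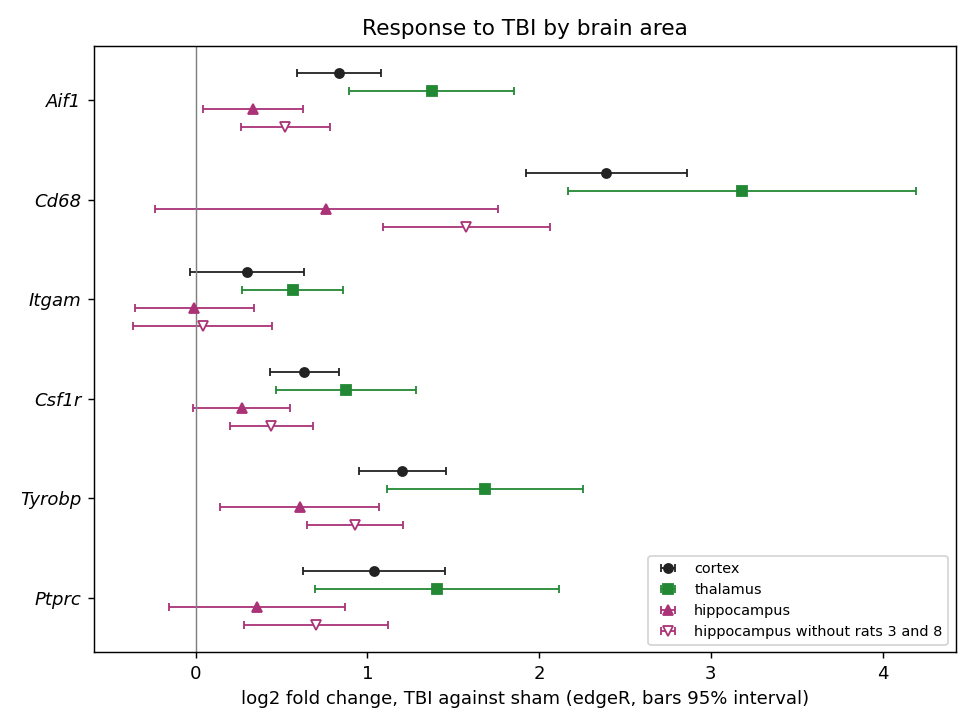
log2 fold change of TBI against sham for each gene, with the 95% interval of the edgeR test, in the cortex (circles), thalamus (squares), hippocampus (filled triangles) and hippocampus without rats 3 and 8 (open triangles). Cd68 has the largest estimate in every set (2.39, 3.18, 0.76 and 1.58) and Itgam the smallest (0.30, 0.56, -0.01 and 0.04).

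In the hippocampus, none of the 6 genes passed the test with all 10 libraries, and neither did any other gene (0% of 16963 genes, edgeR, with 1432 genes at an unadjusted p under 0.05). At an unadjusted p under 0.05, Aif1 and Tyrobp were higher after TBI (2 of 6 genes, against 5.22% of the genes tested). DESeq2 called 16 genes in this area, and none of the 6 genes was among them. No gene of the 6 had every injured rat above every control, which was so for 0.519% of the genes tested.

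Tyrobp had 14.7, 11.1, 19.95, 10.1 and 9.30 CPM in the hippocampus of sham-operated rats and 20.3, 23.1, 13.5, 22.5 and 21.1 CPM in rats with TBI. The library labelled rat 8 was below sham-operated rats 1 and 3, and the other 4 rats with TBI were above every control, of which rat 3 was the highest. The log2 fold change was 0.61 (95% interval 0.14 to 1.07, adjusted p = 0.505). For Cd68, sham-operated rats had 1.93, 1.34, 5.87, 1.97 and 0.90 CPM and rats with TBI had 4.41, 6.10, 2.75, 4.19 and 3.79 CPM. Again the library of rat 3 was far above the other controls and that of rat 8 was the lowest of its group. The log2 fold change of Cd68 was 0.76, with a 95% interval from -0.24 to 1.76 (adjusted p = 0.696).

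Rat 3 was the highest of the sham-operated rats in the hippocampus for 5 of the 6 genes (all but Itgam), and rat 8 was the lowest of the rats with TBI for all 6. Rat 5, with one of the high shares in the 10 most counted genes, was the lowest of the sham-operated rats for all 6 genes. The log2 fold changes of the remaining genes were 0.33 for Aif1 (95% interval 0.04 to 0.63), 0.36 for Ptprc (-0.15 to 0.87), 0.27 for Csf1r (-0.01 to 0.55) and -0.01 for Itgam (-0.36 to 0.34). Of the 6 intervals, that of Cd68 was the widest.

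Without the libraries of rats 3 and 8, 3 of the 6 genes were called higher in the hippocampus after TBI, against 1.45% of the 16960 genes tested in that set. These were Tyrobp (log2 fold change 0.93, SE 0.13, adjusted p = 0.00206), Cd68 (1.58, SE 0.23, adjusted p = 0.00252) and Aif1 (0.52, SE 0.12, adjusted p = 0.0434). For Csf1r the log2 fold change was 0.44 (adjusted p = 0.0711), for Ptprc 0.70 (adjusted p = 0.112) and for Itgam 0.04 (adjusted p = 0.957). For the 5 genes other than Itgam, all 4 remaining injured rats exceeded all 4 remaining controls, which was so for 5.29% of the genes tested in this set. Leaving out rats 4 and 5 in place of rats 3 and 8 gave no call among the 6 genes, and neither did leaving out any single rat. Without rat 3 alone the log2 fold change of Cd68 was 1.45 (adjusted p = 0.0587) and that of Tyrobp 0.81 (adjusted p = 0.0669), and without rat 8 alone they were 0.88 (adjusted p = 0.655) and 0.72 (adjusted p = 0.216). As these libraries stand out in the same genes that are compared, the fit without rats 3 and 8 is a description of the 8 other libraries, and it was added to the tests with earlier results of these data known.

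Whether the response to TBI differed between areas was tested by the interaction term of treatment with area. None of the 6 genes passed that test at an adjusted p under 0.05 for any pair of areas, against 0.44% of all genes for cortex and thalamus, 3.04% for cortex and hippocampus and 0% for thalamus and hippocampus, where 2356 genes had an unadjusted p under 0.05. Between cortex and thalamus the thalamic response was larger by 0.75 for Cd68 (95% interval -0.41 to 1.90), 0.48 for Aif1 (-0.05 to 1.02) and 0.43 for Tyrobp (-0.21 to 1.06), on the log2 scale. These intervals include 0, so the larger thalamic rises did not exceed the spread between rats. The adjusted p of edgeR in the same pair was 0.917 for Ptprc, 0.894 for Csf1r and 0.863 for Itgam.

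The response in the hippocampus was below that in the thalamus at an unadjusted p under 0.05 for all 6 genes, against 4.98% of the genes tested, and below that in the cortex for 3 (Aif1, Cd68 and Tyrobp), against 8.73%. These counts come from the fit without the rat as a block. With the block, Tyrobp no longer had an unadjusted p under 0.05 against the cortex (adjusted p = 0.235, edgeR). Without rats 3 and 8 in either area these counts fell to 1 gene, Aif1, against the thalamus (2.25% of the genes tested) and 0 genes against the cortex (6.76%). Cd68 responded less in the hippocampus by -2.37 against the thalamus (SE 0.69, adjusted p = 0.172) and by -1.60 against the cortex (SE 0.52, adjusted p = 0.0989), on the log2 scale. For Tyrobp these differences were -1.02 (adjusted p = 0.235) and -0.57 (adjusted p = 0.224). Leaving out rats 3 and 8 from both areas made them smaller, at -1.36 (adjusted p = 0.746) and -0.69 (adjusted p = 0.493) for Cd68 and at -0.55 and -0.19 for Tyrobp. This also removed the thalamic library of rat 8, the highest of the rats with TBI there for 3 of the 6 genes. The part of each library in the change was not tested. Against the thalamus, Aif1 went from -0.99 to -0.63, Ptprc from -0.98 to -0.55, Csf1r from -0.57 to -0.30 and Itgam from -0.53 to -0.45, with adjusted p between 0.719 and 0.873. Without rat 6, in contrast, Aif1, Cd68 and Tyrobp passed the threshold against the thalamus, with adjusted p = 0.00535, 0.0146 and 0.0144. In that fit 849 of the 17647 genes tested passed it, against 0 with all rats. Cd68 also passed the threshold against the cortex without rat 1 (adjusted p = 0.0449), where 763 of the 17791 genes tested did.

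**Figure D3:**
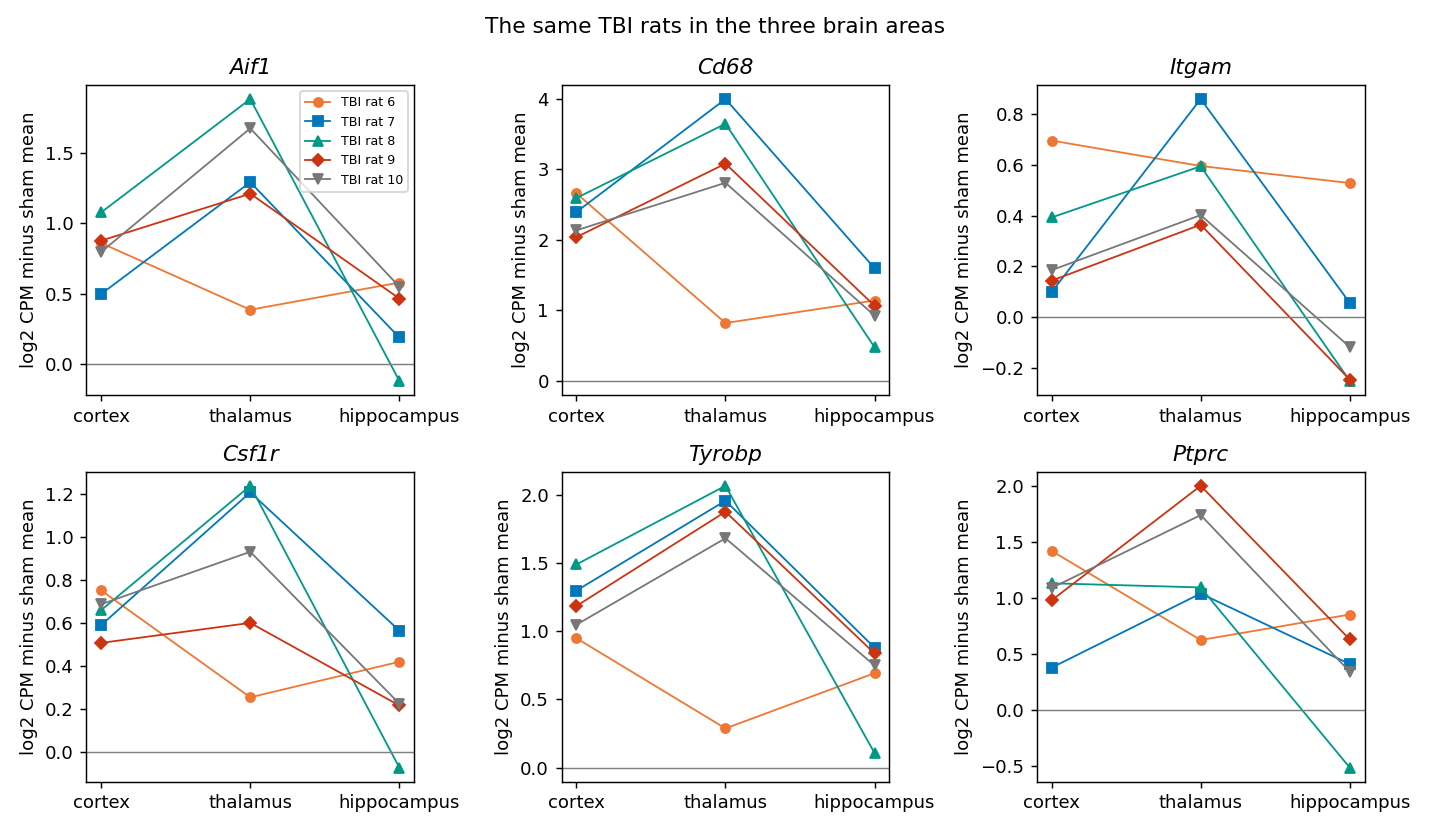
log2 CPM of each rat with TBI minus the mean of the 5 sham-operated rats of the same area, for each gene across the 3 brain areas, with 1 line per rat (6 to 10) and 0 at the sham mean. Rat 6 (orange) is the lowest in the thalamus for every gene except Itgam and the highest in the cortex for 4 genes, and rat 8 (green triangles) is the lowest in the hippocampus for all 6.

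The same 5 injured rats did not keep their order from area to area. Rat 6 was the highest of the rats with TBI for 4 of the 6 genes in the cortex (Cd68, Itgam, Csf1r and Ptprc) and the lowest there for Tyrobp. In the thalamus it was the lowest for 5. Its thalamic levels lay 0.25 to 0.82 above the sham mean on the log2 scale, with a median of 0.49 over the 6 genes. In the cortex its median was 0.90, against 0.54, 1.10, 0.93 and 0.92 for rats 7, 8, 9 and 10. Rat 7 was the lowest in the cortex for 3 genes and the highest in the thalamus for 2, Cd68 and Itgam. Its Cd68 level in the thalamus was 4.0 above the sham mean on the log2 scale, the largest among the 6 genes in any library. Rat 8 was the highest in the thalamus for 3 genes, and its library was the lowest in the hippocampus for all 6. The 6 genes are measured in the same library each time, so these counts of genes are not independent.

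Within a library, ratios between genes do not depend on the scaling of that library. The ratio of Cd68 to each of the other 5 genes was compared between groups with two-sided exact permutation tests, as part of 45 such tests of pairs of these genes over the 3 areas, which were added after the data were seen. In the cortex of rats with TBI the ratio of Cd68 to Itgam was 4.36-fold higher, to Csf1r 3.46-fold, to Aif1 3.03-fold and to Tyrobp 2.34-fold. For these 4 ratios, all 5 TBI libraries were above all sham libraries, and p = 0.00794 was the smallest that exact permutation of 5 against 5 allows. Over the 45 tests the adjusted value was 0.0595, so they fail the correction. As p cannot go lower with 5 rats per group, a fully separated ratio could pass only if more of the 45 tests reached that smallest p. In every injured cortex, Cd68 relative to each of these 4 genes was thus above its level in any control. The ratio to Ptprc was 2.64-fold higher, with 3 of 5 TBI libraries above all sham libraries (exact permutation p = 0.0238, adjusted 0.0824).

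In the thalamus the ratio of Cd68 to Csf1r was 4.21-fold higher and that to Tyrobp 2.53-fold higher, each with all 5 TBI libraries above all sham libraries (exact permutation p = 0.00794, adjusted 0.0595). The ratios to Itgam and Aif1 were 5.12-fold and 3.08-fold higher, with 4 of 5 TBI libraries above (exact permutation p = 0.0159, adjusted 0.0714), and that to Ptprc was 2.85-fold higher (exact permutation p = 0.0635, adjusted 0.124). In the hippocampus Cd68 relative to Csf1r was 1.77-fold higher (exact permutation p = 0.0476, adjusted 0.113), and no TBI library was above the sham library of rat 3. The other ratios of Cd68 there were 2.14-fold (Itgam), 1.69-fold (Aif1), 1.66-fold (Ptprc) and 1.35-fold (Tyrobp) higher, with exact permutation p = 0.0714, 0.111, 0.0714 and 0.190. Without rats 3 and 8, the log2 difference of the ratio was 1.59 for Itgam (1.10 with all libraries), 1.19 for Csf1r (0.82), 1.11 for Aif1 (0.76), 0.91 for Ptprc (0.73) and 0.67 for Tyrobp (0.43). None of the 45 tests had an adjusted value under 0.05, which with 5 rats per group no single ratio could have reached on its own.

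**Figure D4:**
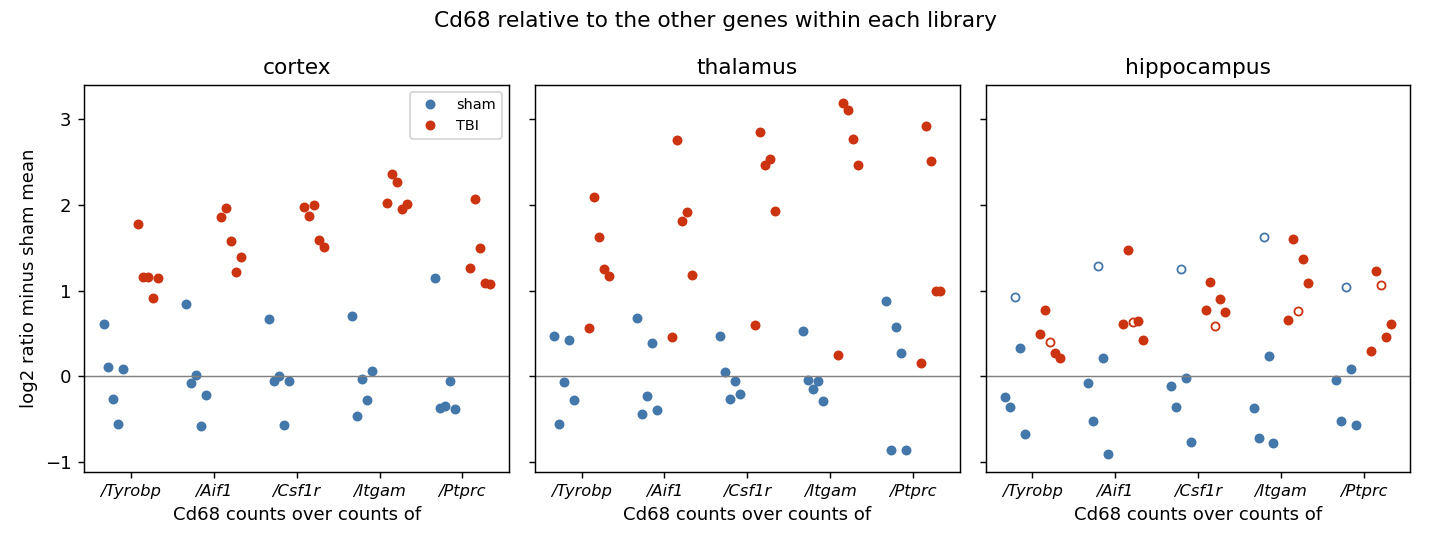
log2 ratio of the Cd68 count to the count of each of the other 5 genes in the same library, minus the mean of the 5 sham-operated rats of that area, with 1 point per rat (blue sham, red TBI, open for hippocampal rats 3 and 8). In the cortex all red points lie above all blue points for the ratios to Tyrobp, Aif1, Csf1r and Itgam, and in the hippocampus the open blue point of rat 3 lies among or above the red points.

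Over the 30 libraries, each centred on the mean of its area, 4 of the 6 genes followed the mean of the other 5 closely, with a Pearson r of 0.95 for Tyrobp, 0.95 for Cd68, 0.93 for Aif1 and 0.92 for Csf1r. Ptprc had an r of 0.80 and Itgam the lowest, 0.63. Without the hippocampal libraries of rats 3 and 8 (28 libraries), r was 0.95, 0.96, 0.93, 0.92, 0.81 and 0.64 for Tyrobp, Cd68, Aif1, Csf1r, Ptprc and Itgam. The libraries share rats across areas and both groups enter, so r includes the response to TBI itself and is given with no test. Among the 15261 other genes compared in the same way, ENSRNOG00000012062 (r = 0.981) and ENSRNOG00000024159 (r = 0.979) were most like the mean of the 6 genes. The names of these identifiers were not analysed here. ENSRNOG00000012062 went from 105 ± 9.6 to 235 ± 21 CPM in the cortex (SD, n = 5 per group) and from 184 ± 21 to 498 ± 171 CPM in the thalamus. In the hippocampus it had 104 ± 32 CPM in sham-operated rats and 151 ± 25 CPM after TBI. As it was picked for its likeness to the 6 genes over these libraries, these levels are a description.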

How the data were processed

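The authors aligned the reads to Rnor_5.0 with STAR. The values deposited by the authors are raw read counts for each Ensembl gene, with 1 table for each of the 3 brain areas (10 libraries each). The counting tool, the annotation and the use of strand are not given in the sources used here. DESeq2 and R 3.1.0 appear in the submitters' processing notes, and the authors left 2 hippocampal samples with low alignment, both sham-operated and not named, out of their own tests. All 10 hippocampal libraries were used here, so 2 of the 5 hippocampal controls are libraries that the authors left out. All columns were matched to samples by name, and 0 were left unused. Where the labels and the paper differ on the instrument of the thalamic libraries, the paper was followed. Depth was 21992859 to 31799879 counts per library.

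The software was edgeR 4.0.16, DESeq2 1.42.0 and limma 3.58.1 under R 4.3.3. In each area, genes were kept by filterByExpr (minimum count 10, minimum total 15), scaled by TMM and compared by edgeR's quasi-likelihood test with robust fitting. Benjamini-Hochberg adjustment ran over all genes tested, with a threshold of 0.05. Sham-operated rats were compared between areas, and responses between areas by the interaction, in the same way. CPM used the TMM library sizes, and log2 CPM a prior count of 3. The fits were tested on simulated counts.

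The 6 genes and the lists were chosen with earlier results of these data known. The rule for naming genes was all 6 genes, up to 4 genes of each list of cell type markers and pathway partners, and the genes most like the 6 over the libraries (mean of at least 1 CPM). Since 0 Ensembl identifiers could be paired with the name table used here, these lists and the check of tissue markers were not run.

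Alternatives were DESeq2, its size factors in edgeR, no filter, limma's voom with quality weights, one fit for all areas, each rat left out in turn, hippocampus without rats 4 and 5 or rats 3 and 8, and the rat as a block. Chosen after seeing the data were the hippocampal libraries with the code FC120 in their column names, the ratios of genes and the comparison of libraries by rat. The labels give all 3 areas the same rat numbers, so libraries are paired by rat. Over 16004 genes, deviations of same-rat libraries from their group means had a mean correlation of 0.058 for cortex with thalamus, 0.12 for cortex with hippocampus and 0.038 for thalamus with hippocampus.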

Additional observations from a re-analysis of the deposited data

Results flagged for a closer look

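Of 36 groups of 5 libraries looked at (6 genes, sham and TBI, in 3 areas), 3 on the log2 CPM scale and 4 on the CPM scale held a library far from the others by Dixon's test, with a critical value of 0.71 for the gap divided by the range. Chance gives about 1 in 20 such groups, and a single group, that of Aif1 in the cortex of sham-operated rats, was found on both scales. There the lowest library was that of rat 3, at 9.12 CPM with the nearest at 11.4 CPM (0.749 on log2 CPM and 0.72 on CPM). On log2 CPM alone, the lowest Tyrobp level in the thalamus after TBI was that of rat 6, at 24.4 CPM with the nearest at 64.5 CPM (0.784), and the lowest Tyrobp level in the hippocampus after TBI was in the library of rat 8, at 13.5 CPM with the nearest at 20.3 CPM (0.758). On CPM alone, the highest Cd68 level among sham-operated rats was in the library of rat 3 in the hippocampus, at 5.87 CPM with the nearest at 1.97 CPM (0.784), and in that of rat 1 in the cortex, at 3.52 CPM with the nearest at 1.92 CPM (0.758). The highest Aif1 level in the thalamus of sham-operated rats was that of rat 2, at 14.8 CPM with the nearest at 12.6 CPM (0.715 on CPM). The causes were not tested.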

How the results depend on the processing

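In the cortex, between 5 and 6 of the 6 genes passed the test over all alternatives. Each alternative in the thalamus that kept all rats called all 6 genes. Leaving out single rats gave 0 to 6, with 0 without rat 3, 5, 7 or 8 and 3 without rat 10. In the hippocampus 0 of the 6 genes were called with each rat left out in turn and 3 without rats 3 and 8. In the libraries with the code FC120 without rats 3 and 8, 2 were called (Cd68 and Tyrobp), where 89 of 17250 genes tested were called higher. The hippocampal difference of Itgam, -0.01 on the log2 scale, was 0.012 with no filter, 0.0026 in one fit for all areas, 0.040 without rats 3 and 8, 0.064 in the FC120 libraries, 0.14 in these without rats 3 and 8, and -0.17 to 0.10 with each rat left out. For the interactions, leaving out single rats gave 0 of the 6 genes for cortex and thalamus, 0 to 1 for cortex and hippocampus and 0 to 3 for thalamus and hippocampus. With the rat as a block none of the 6 genes was called in any pair. Over all genes tested, the block gave 49 of 17745 for cortex and thalamus, 1048 of 17688 for cortex and hippocampus and 0 of 17617 for thalamus and hippocampus.

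Among the area levels of sham-operated rats, the rat as a block gave 3 called genes for thalamus and cortex and 1 for hippocampus and cortex, and it changed no other call. Leaving out single rats gave 1 to 2, 0 to 1 and, for hippocampus and thalamus, 1 to 2 called genes, and leaving out rats 4 and 5 gave 2 for the last pair. Without rats 4 and 5, the differences of Aif1 were 0.092 (thalamus and cortex) and 0.031 (hippocampus and cortex), that of Itgam was -0.10 (thalamus and cortex) and that of Csf1r was 0.027 (hippocampus and thalamus). With each rat left out in turn, thalamus minus cortex was -0.11 to 0.028 for Aif1 and -0.052 to 0.25 for Itgam, hippocampus minus cortex was -0.31 to 0.79 for Cd68 and -0.11 to 0.20 for Tyrobp, and hippocampus minus thalamus was -0.50 to 0.49 for Cd68 and -0.16 to 0.0073 for Csf1r. The causes were not tested. Counts of 12 to 38 reads limit Ptprc in the sham thalamus, and counts down to 14 and 18 reads limit Cd68 and Ptprc in the sham hippocampus.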
